A study of Mus musculus with 18 samples.

Results

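The 8 genes described here encode receptors and ligands of 2 families of neuronal growth factors: Ngfr, Ntrk2, Ntrk3, Bdnf and Ntf3 of the neurotrophins, and Ret, Gfra1 and Gfra2 of the glial cell line-derived neurotrophic factor (GDNF) family. They were taken by gene symbol from a given list, out of 37620 annotated genes in the deposited count tables. No measured value enters that rule, but the list was chosen with earlier results of these data known. All 8 were found, and all 8 passed the filter on low counts. They were measured by poly-A RNA sequencing of cells sorted from C57BL/6 mouse embryos at embryonic day 14.5. The tissue was the lateral cortex, which at this age holds dividing progenitors together with the neurons they give rise to. All embryos carried reporters at Btg2, a gene switched on in progenitors that are about to form neurons, and at Tubb3, a neuronal tubulin. By label, the red-negative fraction is proliferating progenitors (PP), the red-positive fraction differentiating progenitors (DP) and the green fraction neurons (Neuron). The sample titles give these colours, whereas every genotype entry reads Btg2GFP/Tubb3GFP, and the titles were followed. A sample was a pool of embryos from different litters, with the meninges and ganglionic eminences removed before sorting. Each fraction had 3 libraries, named here by group and library number, and each library was read in a single-read and a paired-end run that were counted as 1 replicate.

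Neurotrophins are secreted proteins that keep neurons alive and shape their growth. Bdnf acts through the receptor tyrosine kinase TrkB, the product of Ntrk2, and Ntf3 mainly through TrkC, the product of Ntrk3, while the p75 receptor, the product of Ngfr, binds all neurotrophins and can act with or against the Trk receptors. Ligands of the GDNF family bind a GFRα protein that is anchored in the membrane without a kinase of its own, and this pair then engages Ret, a receptor tyrosine kinase. GFRα1 prefers GDNF and GFRα2 prefers neurturin, and in the brain GFRα1 can also signal through the adhesion molecule NCAM in cells without Ret.

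The libraries held between 34337209 and 55935128 counts. Levels are CPM, counts scaled to a library total of 1000000, or, to compare genes, the same per 1000 bases of gene model (RPKM), given as mean ± SD over 3 libraries. Fold changes, their standard errors (SE) and adjusted p-values come from edgeR's quasi-likelihood test over 18627 features, and a gene was called at an adjusted p under 0.05. Btg2 was at 445 ± 67.6, 888 ± 251 and 169 ± 22.2 CPM in PP, DP and Neuron, and Tubb3 at 87.9 ± 29.5, 581 ± 98.9 and 2384 ± 261, an order of both sort genes that matched the labels. Summed radial glia markers ran from 5403 to 6319 CPM in PP, 2494 to 3625 in DP and 298 to 380 in Neuron, and red blood cell genes from 8359 to 15287 in PP against at most 118 in DP and 13.5 in Neuron. In bulk fractions, fewer cells of a type and less RNA per cell cannot be told apart.

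The 8 genes did not move as a block. From PP to DP, Ntf3, Gfra1 and Gfra2 rose, Ngfr and Ntrk2 fell, and Ntrk3, Bdnf and Ret were not called. From DP to Neuron, 7 of 8 rose and Gfra1 fell. Neuron exceeded PP for 6 of 8, while Ntrk2 and Gfra1 were lower in Neuron than in PP. Over all features tested, 21.3% were called higher and 20.2% lower in the first of these comparisons, 33.1% and 34.2% in the second, and 36.7% and 38.6% in the third. The median log2 fold change of the 8 genes was 0.39, 1.29 and 2.37 in these 3 comparisons, against -0.02, -0.04 and -0.04 over all features. Ret, with 3 reads in PP, 9 in DP and 180 in Neuron, passed the filter on low counts only through Neuron. The filter thus favoured its rise in Neuron, which enters the counts of 7 and 6 genes and these medians. The 3 comparisons share libraries and so are not independent of each other.

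**Figure D1:**
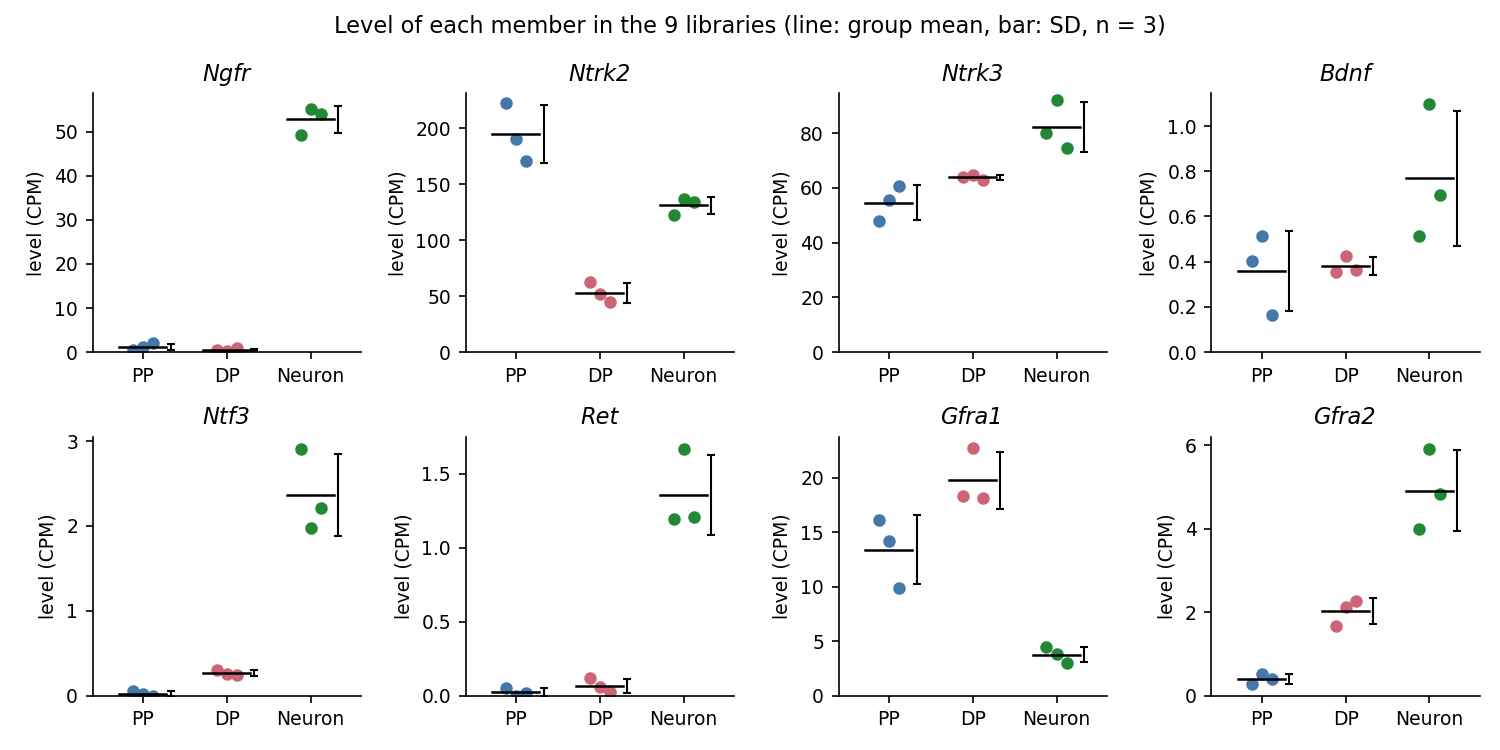
Level in CPM (y axis, each panel from 0) of the 8 genes in PP, DP and Neuron; each point is a library, the line is the group mean and the bar beside it the SD (n = 3, bars end at 0 where they would pass it). Ngfr, Ntf3 and Ret are near 0 outside Neuron, Ntrk2 is lowest in DP, and Gfra1 is highest in DP and lowest in Neuron.

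Among the ligands, Bdnf was scarce in every fraction. Bdnf (ENSMUSG00000048482, mm9 chromosome 2, 109514857 to 109567164, plus strand) had 15, 24 and 8 reads in the PP libraries L222, L355 and L393, which is 0.403, 0.513 and 0.164 CPM. In DP (L223, L356 and L394) it was at 0.353, 0.426 and 0.362 CPM, and in Neuron (L224, L357 and L395) at 0.515, 1.10 and 0.695 CPM. The PP and DP libraries overlapped, and all 3 Neuron libraries lay above them, the lowest of them only just. Bdnf did not pass the test in DP against PP, where the log2 fold change of 0.10 had a 95% interval from -0.83 to 1.03 (adjusted p = 0.876). It rose 2.02-fold from DP to Neuron (log2 1.02, SE 0.39, adjusted p = 0.0362) and Neuron exceeded PP 2.17-fold (adjusted p = 0.0225). Both calls rest on few reads: the first was lost in 8 of 16 alternative settings, among them leaving out any 1 of the 3 DP libraries or the Neuron library L357 or L395 (adjusted p from 0.00983 to 0.194 over the 16). The second was lost in 3: the paired-end runs alone, or without PP L393 or Neuron L357 (adjusted p up to 0.135).

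Ntf3, which encodes neurotrophin-3, rose at both steps. Ntf3 (ENSMUSG00000049107, mm9 chromosome 6, 126051431 to 126116762, minus strand) had 2, 1 and 0 reads in the 3 PP libraries. It had 13, 13 and 10 reads in DP, or 0.306, 0.252 and 0.241 CPM, and 124, 97 and 86 in Neuron, or 2.90, 1.97 and 2.21 CPM. The 3 groups did not overlap, and the order was PP, DP, Neuron. With only 3 PP reads in all, the ratio of DP to PP was 11.8 with an exact 95% interval from 3.71 to 59.6 for counting error, and the ratio of Neuron to PP was 104, from 35.2 to 507. The fitted fold from PP to DP was 10.5 (log2 3.40, SE 0.60, adjusted p = 0.000827) and from DP to Neuron 8.80 (log2 3.14, SE 0.30, adjusted p = 2.23e-06). The PP to DP call was lost with the single-read runs alone (log2 1.74, adjusted p = 0.110). Over the 16 alternatives its log2 value ranged from 1.74 to 6.05 and its adjusted p from 0.000200 to 0.110, and the log2 value of Neuron against PP from 5.20 to 8.98. Rising at both steps was shared with Gfra2 and with 12.4% of all features.

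Among the Trk receptors, Ntrk2 fell in DP and rose again in Neuron. Ntrk2 (ENSMUSG00000055254, mm9 chromosome 13, 58907957 to 59235331, plus strand) was at 222.2, 191 and 171 CPM in the PP libraries, at 62.3, 52.2 and 44.8 in DP, and at 123, 137 and 134 in Neuron. The 3 groups did not overlap, with PP highest, Neuron between and DP lowest. Ntrk2 fell 3.67-fold from PP to DP (log2 -1.87, SE 0.12, adjusted p = 7.25e-07), the 326th lowest log2 fold change of 18627. From DP to Neuron it rose 2.47-fold (log2 1.31, SE 0.12, adjusted p = 1.74e-06), and Neuron stayed 1.48-fold below PP (log2 -0.57, SE 0.12, adjusted p = 0.00105). All 3 calls held in each of the 16 alternatives. The gene makes full-length and truncated receptors, and the gene counts do not separate them, so which form made up the PP and the Neuron level was not measured.

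Ntrk3, the receptor gene for neurotrophin-3, was expressed in all 3 fractions, and its largest fold between any of them, 1.51, was the smallest of the 8 genes. Ntrk3 (ENSMUSG00000059146, mm9 chromosome 7, 85337248 to 85723294, minus strand) was at 47.8, 55.5 and 60.6 CPM in PP, 64.0, 64.6 and 62.8 in DP, then 80.1, 92.3 and 74.5 in Neuron. The groups rose in that order without overlap, though the highest PP library lay close to DP. The step from PP to DP did not pass the test (log2 0.22, 95% interval 0.01 to 0.44, adjusted p = 0.0890), except with the PP library L393 left out (log2 0.31, adjusted p = 0.0294, against up to 0.300 over the 16 alternatives). Ntrk3 rose 1.29-fold from DP to Neuron (log2 0.37, SE 0.10, adjusted p = 0.00548), and Neuron exceeded PP 1.51-fold (log2 0.59, SE 0.10, adjusted p = 0.000163). Ntrk3 also makes forms without the kinase, which the counts do not separate.

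Ngfr had the steepest step of the 8 genes. Ngfr (ENSMUSG00000000120, mm9 chromosome 11, 95430132 to 95449049, minus strand) was at 0.591, 1.07 and 2.01 CPM in the PP libraries, and DP had 0.518, 0.368 and 0.844. In Neuron it was at 49.3, 55.1 and 54.0 CPM. The Neuron libraries stood far above all others, while the PP and DP libraries overlapped. Ngfr was 93.1-fold higher in Neuron than in DP (log2 6.54, SE 0.33, adjusted p = 6.71e-09), the 67th highest of 18627 log2 fold changes, and 41.8-fold higher than in PP (log2 5.39, SE 0.29, adjusted p = 9.38e-09). In DP it was 2.22-fold lower than in PP (log2 -1.15, SE 0.40, adjusted p = 0.0364), on 76 against 170 reads. This call was lost in 8 of 16 alternatives, among them leaving out the PP library L393 (adjusted p = 0.200), DP L223 or L356, or Neuron L357 or L395. Over the 16, the adjusted p ran from 0.00468 to 0.200, and the authors' deposited table gives an adjusted p of 0.0681. The dip of Ngfr and Ntrk2 in DP, called against both other groups, was shared by 4.49% of all features.

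In PP, but not in DP, the libraries had the same order in Ngfr as in markers of cells around the vessels and in the meninges. The p75 receptor is also made by mesenchymal and neural crest cells. Summed over 7 meningeal fibroblast genes, the PP libraries L222, L355 and L393 held 13.5, 24.3 and 94.3 CPM, and over 6 pericyte genes 32.4, 47.9 and 59.6 CPM, in the same order as their Ngfr. In DP the 2 sums ran from 3.72 to 8.97 and from 8.73 to 13.6 CPM, both highest in L223. Ngfr was instead highest in DP L394 (0.844 CPM against 0.518 in L223), where the pericyte sum was lowest. Nor was the PP order particular to these lists. Among the 8 genes, Ntrk3 also rose in it, from 47.8 to 60.6 CPM, while Ntrk2, Ntf3 and Gfra1 fell in it. The part of meningeal cells and pericytes in the PP level of Ngfr was not tested. In Neuron, where Ngfr was high, the sums were at most 1.65 and 3.19 CPM, Foxd1 of the meningeal list was at 0 reads, and so were Sox10 and Foxd3 of the 5 neural crest and Schwann cell genes, whose sum lay between 9.94 and 12.5 CPM against 13.6 to 18.1 in PP. Neuron also had larger sums of Cajal-Retzius cell transcripts (8 genes, 838 to 957 CPM against 72.9 to 86.6 in DP) and interneuron transcripts (11 genes, 589 to 601 against 145 to 293). Of the 8 genes, 6 were called higher and 1 lower in Neuron than in DP, and 1 was not called. Of the 11, 8 were higher, 1 lower and 2 not called. Over all features tested, 33.1% were higher and 34.2% lower. The sum over 6 genes listed for subplate neurons was highest in PP, at 206 to 251 CPM. It was 137 to 142 in DP and 67.8 to 75.2 in Neuron. Of the 5 that could be tested, 1 was higher and 4 lower in Neuron than in DP. None of these sums speaks for each gene of its list. The part of these cell types in the Neuron levels of Ngfr, Ntf3 and Ret was not tested.

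Of the GDNF family receptors, Ret had at most 5 reads in any library outside Neuron. Ret (ENSMUSG00000030110, mm9 chromosome 6, 118101766 to 118147762, minus strand) had 2, 0 and 1 reads in PP, 5, 3 and 1 in DP, then 51, 82 and 47 in Neuron, where it was at 1.19, 1.67 and 1.21 CPM. The PP and DP libraries overlapped and the Neuron libraries lay above all of them. DP against PP was not called (ratio of counts 2.94, exact 95% interval 0.733 to 16.9 for counting error, adjusted p of the fit 0.209). The ratio of counts from DP to Neuron was 20.7, with an exact 95% interval from 10.7 to 46.1 for counting error, and the fitted fold was 19.7 (log2 4.30, SE 0.44, adjusted p = 3.99e-06). Neuron against PP had a ratio of 60.9, from 20.5 to 298 (adjusted p of the fit 1.15e-06).

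The 2 coreceptors of Ret ran in opposite directions from DP to Neuron. Gfra1 (ENSMUSG00000025089, mm9 chromosome 19, 58310094 to 58530399, minus strand) was at 16.1, 14.2 and 9.90 CPM in PP, 18.4, 22.7 and 18.2 in DP, then 4.45, 3.84 and 3.01 in Neuron. DP was highest, PP followed and Neuron was lowest, with no overlap. The DP level of Gfra1 was 1.48-fold that of PP (log2 0.56, SE 0.18, adjusted p = 0.0251), a call lost without the PP library L393 (log2 0.40, adjusted p = 0.0712) or the DP library L356 (log2 0.45, adjusted p = 0.101, the highest of the 16 alternatives, whose lowest was 0.0104). Neuron had 5.23-fold less than DP (log2 -2.39, SE 0.20, adjusted p = 5.00e-07) and 3.54-fold less than PP (log2 -1.82, SE 0.19, adjusted p = 4.03e-06). A peak in DP, called against both other groups, was shared by 4.37% of all features. An antisense gene, Gm16277, overlaps the 3' end of Gfra1 in the annotation and had 18, 18 and 6 reads in PP, DP and Neuron, few beside the 1746, 2707 and 496 of Gfra1, and the sources used here do not say if reads were counted by strand.

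Gfra2 (ENSMUSG00000022103, mm9 chromosome 14, 71289927 to 71379645, plus strand) was at 0.268, 0.513 and 0.390 CPM in PP, 1.67, 2.13 and 2.27 in DP, then 3.98, 5.91 and 4.84 in Neuron. The 3 groups rose in that order without overlap. Gfra2 rose 5.08-fold from PP to DP (log2 2.34, SE 0.26, adjusted p = 3.12e-05) and 2.43-fold from there to Neuron (log2 1.28, SE 0.21, adjusted p = 0.000214), and both calls held in each of the 16 alternatives. Neuron exceeded PP 12.3-fold (log2 3.62, SE 0.26, adjusted p = 9.42e-08).

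**Figure D2:**
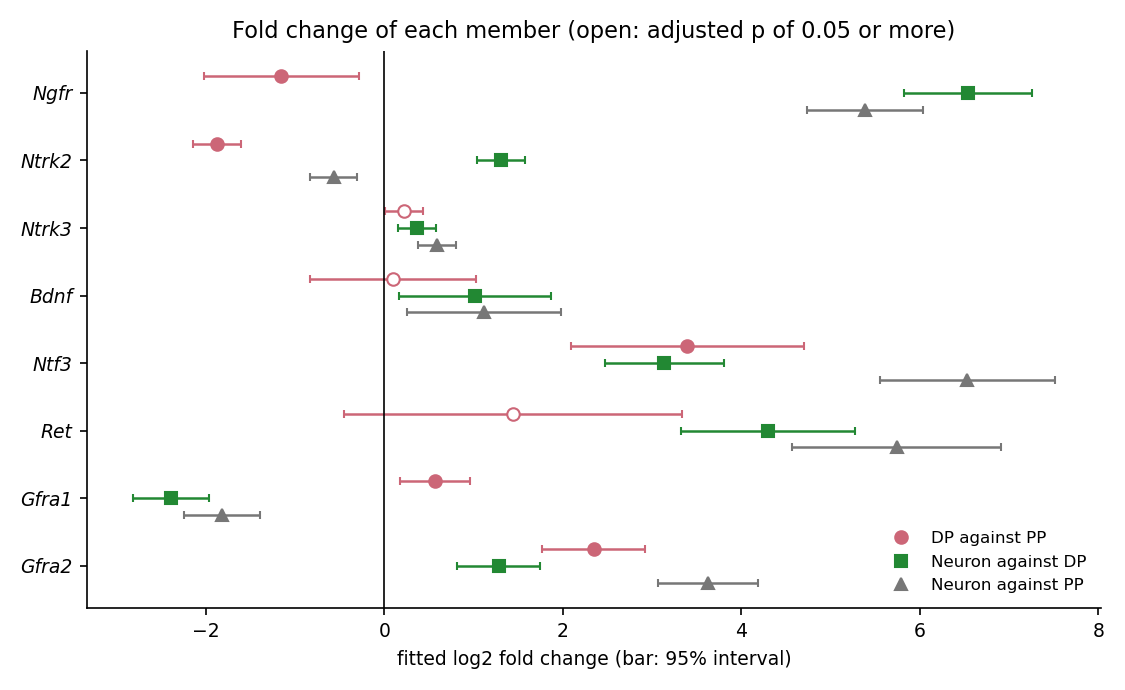
Fitted log2 fold change (x axis) of the 8 genes in DP against PP (circles), Neuron against DP (squares) and Neuron against PP (triangles), with 95% intervals; open symbols have an adjusted p of 0.05 or more. Ntrk2 lies on opposite sides of 0 in the first and second comparison, Gfra1 likewise with the signs exchanged, and the intervals of Bdnf and Ret cross 0 in DP against PP.

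Per 1000 bases of gene model, the 2 Trk receptors led in PP: Ntrk2 at 12.9 ± 1.71 RPKM and Ntrk3 at 10.4 ± 1.22 overlapped in their libraries. Gfra1 followed at 2.45 ± 0.580 RPKM, then Ngfr at 0.355 ± 0.210, Gfra2 at 0.111 ± 0.0347, Bdnf at 0.0579 ± 0.0286, Ntf3 at 0.0175 ± 0.0189 and Ret at 0.00337 ± 0.00369. Ngfr and Gfra2 did not overlap, while the libraries of Gfra2 and Bdnf, of Bdnf and Ntf3, and of Ntf3 and Ret did. In DP, Ntrk3 stood alone at 12.2 ± 0.176 RPKM, above Gfra1 at 3.61 ± 0.473 and Ntrk2 at 3.52 ± 0.582, which overlapped. Below them was Gfra2 at 0.576 ± 0.0888 RPKM. Ntf3 at 0.187 ± 0.0244 and Ngfr at 0.167 ± 0.0706 overlapped, and lowest were Bdnf at 0.0612 ± 0.00642 and Ret at 0.00907 ± 0.00645. In Neuron, Ntrk3 at 15.7 ± 1.73 and Ngfr at 15.3 ± 0.889 RPKM overlapped, and Ntrk2 at 8.70 ± 0.506 was below both. Ntf3 at 1.66 ± 0.339 and Gfra2 at 1.397 ± 0.276 overlapped, Gfra1 was at 0.688 ± 0.132, and Ret at 0.185 ± 0.0365 and Bdnf at 0.124 ± 0.0479 overlapped. These levels depend on the gene model, which for Ntrk2 is 15094 bases long and for Ntf3 1427.

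Ratios between paired receptors were compared within each library. The ratio of Gfra2 to Gfra1, in RPKM, was 0.0260, 0.0563 and 0.0614 in the PP libraries, 0.142, 0.146 and 0.194 in DP, then 1.39, 2.40 and 2.50 in Neuron. Gfra1 was thus the more abundant of these coreceptors in every PP and DP library, and Gfra2 in every Neuron library. The ratio of Ntrk2 to Ntrk3 was 1.61, 1.19 and 0.981 in PP, 0.338, 0.280 and 0.248 in DP, then 0.531, 0.515 and 0.626 in Neuron, so that the groups did not overlap and DP was lowest. The ratio of Ngfr to Ntrk2 was 0.0116, 0.0245 and 0.0515 in PP, 0.0364, 0.0309 and 0.0825 in DP, and 1.76 in each of the 3 Neuron libraries. PP and DP overlapped in this ratio (exact two-sided permutation p = 0.4). The ratio of Ngfr to Ntrk3 was 0.0188, 0.0292 and 0.0505 in PP, 0.0123, 0.00866 and 0.0204 in DP, then 0.936, 0.908 and 1.10 in Neuron. PP and DP overlapped here as well (exact two-sided permutation p = 0.2). Of the 12 comparisons of these 4 ratios, 10 separated the groups completely, with an exact two-sided permutation p of 0.1, the smallest that 3 against 3 libraries allow (adjusted 0.12 over the 12), so the design cannot reach 0.05.

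**Figure D3:**
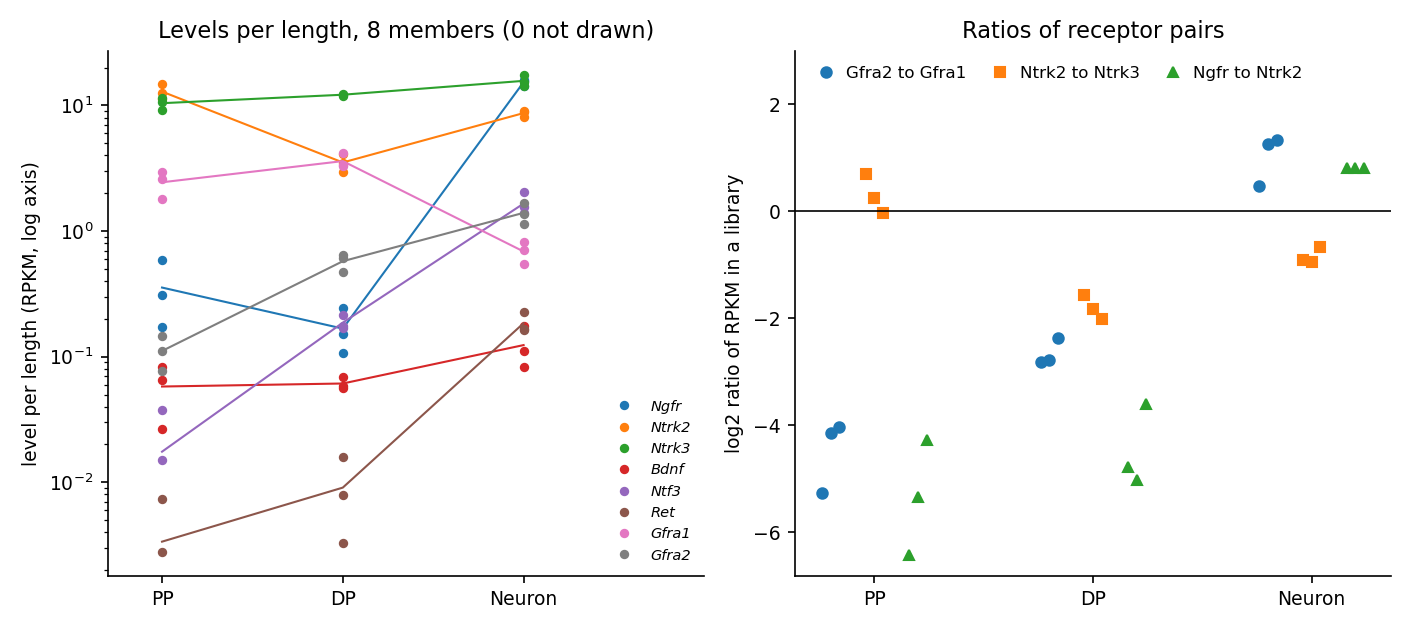
Left, level per length (RPKM, log axis) of the 8 genes, with points for libraries and lines joining group means; the 2 libraries at 0 reads (Ntf3 in 1 PP library and Ret in 1) are not drawn. Right, log2 ratio of RPKM for 3 receptor pairs in each library, with 0 meaning equal levels: Gfra2 to Gfra1 is below 0 in PP and DP and above 0 in Neuron, and Ngfr to Ntrk2 likewise.

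Promoter sequence is shown for the genes that dipped or peaked in DP, or rose at both steps, where the RefSeq table (GRCm38.p6) has a window. It held 12 windows for 5 of the 8 genes, each the 250 bases before an annotated start, and none for Ntrk3, Gfra2 and Ret. Capitals mark matches, on either strand, to 4 motifs: the E-boxes CAGCTG and CAGATG, read by proneural basic helix-loop-helix factors among others, the GC box GGGCGG and the cyclic AMP response element TGACGTCA. Of all 32851 windows of that length, 13.0% hold CAGCTG, 14.4% CAGATG, 32.7% GGGCGG and 1.55% TGACGTCA. No match overlapped another in the windows printed. The windows are Ngfr (chr11:95587699-95587948, minus strand) and Ntrk2 (chr13:58806319-58806568, plus strand), which dipped in DP, Gfra1 (chr19:58455399-58455648, minus strand), which peaked there, and Ntf3, which rose at both steps, at 2 starts (chr6:126166745-126166994 and chr6:126164961-126165210, minus strand).
Ngfr: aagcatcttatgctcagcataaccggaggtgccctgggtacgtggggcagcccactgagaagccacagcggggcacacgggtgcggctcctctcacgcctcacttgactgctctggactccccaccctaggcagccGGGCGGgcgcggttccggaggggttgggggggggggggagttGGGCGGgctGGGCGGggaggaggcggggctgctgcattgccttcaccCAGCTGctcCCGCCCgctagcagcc
Ntrk2: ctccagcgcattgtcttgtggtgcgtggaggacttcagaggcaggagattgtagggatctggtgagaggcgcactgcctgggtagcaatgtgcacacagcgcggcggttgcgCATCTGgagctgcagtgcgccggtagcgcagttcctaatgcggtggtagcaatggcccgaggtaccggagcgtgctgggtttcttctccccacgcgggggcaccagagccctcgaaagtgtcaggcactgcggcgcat
Gfra1: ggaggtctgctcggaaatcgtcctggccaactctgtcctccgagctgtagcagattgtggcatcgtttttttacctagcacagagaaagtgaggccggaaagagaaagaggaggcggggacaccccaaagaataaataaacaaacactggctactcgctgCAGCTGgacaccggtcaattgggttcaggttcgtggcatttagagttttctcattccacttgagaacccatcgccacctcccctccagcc
Ntf3, first start: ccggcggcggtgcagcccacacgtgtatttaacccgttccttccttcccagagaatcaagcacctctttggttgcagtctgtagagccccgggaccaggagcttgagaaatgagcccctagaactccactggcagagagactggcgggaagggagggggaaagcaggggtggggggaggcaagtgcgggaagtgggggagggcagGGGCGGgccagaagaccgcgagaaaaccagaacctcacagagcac
Ntf3, second start: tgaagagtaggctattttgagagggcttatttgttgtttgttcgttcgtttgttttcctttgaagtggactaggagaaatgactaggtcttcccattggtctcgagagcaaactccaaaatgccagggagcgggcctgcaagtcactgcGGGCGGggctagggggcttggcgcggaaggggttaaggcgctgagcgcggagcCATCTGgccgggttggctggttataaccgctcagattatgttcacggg
The Ngfr window held 1 CAGCTG, beginning 25 bases before the start, and 4 matches to GGGCGG. Ntrk2 held 1 CAGATG at 138 bases and Gfra1 1 CAGCTG at 90 bases before the start. The first Ntf3 window held 1 GGGCGG at 45 bases, and the second 1 CAGATG at 48 and 1 GGGCGG at 101 bases. TGACGTCA was in none of the 12 windows. A match is a run of letters, not a measured site, and no binding was measured in this series.

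Genes lying near a member were looked up within 100 kb in the authors' annotation (mm9). Nxph3, which encodes a secreted neurexophilin, lies 54248 bases from Ngfr on the same strand (chromosome 11, 95371159 to 95375884). It was at 0.263 ± 0.0749, 1.66 ± 0.257 and 67.3 ± 6.22 CPM in PP, DP and Neuron. It rose 6.40-fold from PP to DP (adjusted p = 2.91e-06), where Ngfr did not rise, and 40.5-fold from DP to Neuron (adjusted p = 7.15e-11). Rasgef1a, 60202 bases from Ret, was at 0.0888 ± 0.0719, 0.0788 ± 0.0488 and 1.21 ± 0.193 CPM, and rose 14.5-fold from DP to Neuron (adjusted p = 1.58e-05). Csgalnact2, nearer to Ret at 12608 bases, was at 10.5 ± 0.346, 10.96 ± 0.300 and 11.7 ± 1.17 CPM and was called in no comparison. Gm9885, 422 bases from Ntrk3, was at 4.30 ± 0.535, 2.89 ± 0.305 and 4.59 ± 0.521 CPM, lower in DP than in PP (adjusted p = 0.0118). These 4 neighbours were singled out after their values were seen.

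For each of the 8 genes, the 3 genes nearest in pattern were found among 12837, by the root mean square difference of centred log2 CPM over the 9 libraries, a value in log2 units that is 0 for an identical pattern. Nearest to Ntrk2 was Ptprz1 (0.14), a receptor tyrosine phosphatase of radial glia, at 784 ± 93.2 CPM in PP, 254 ± 52.9 in DP and 518 ± 55.5 in Neuron, followed by Pmm1 (0.17) and Panx2 (0.20). Nearest to Gfra1 was Ezr (0.16), which encodes the membrane linker ezrin, at 215 ± 31.7, 369 ± 45.1 and 76.8 ± 15.2 CPM, followed by Heg1 and Hmgn5 (both 0.18). Nearest to Ntf3 was Bcl11b (0.23), a transcription factor of deep-layer projection neurons, at 35.2 ± 9.76, 146 ± 18.0 and 1152 ± 59.6 CPM, followed by Pak7 (0.24) and Nptx1 (0.25). Nearest to Ngfr was Kcna6 (0.43), a potassium channel gene, at 0.885 ± 0.173, 0.602 ± 0.201 and 44.2 ± 1.10 CPM, followed by Gm15440 (0.49) and Camk4 (0.60). Nearest to Ntrk3 were Mkl1 (0.07), Dapk3 and Spsb3 (both 0.08). Nearest to Gfra2 were Galnt14 (0.26), Slc43a2 (0.27) and Pcdhb17 (0.27), and nearest to Ret Slit3 (0.33), Xkr4 (0.35) and Trpm2 (0.35). For Bdnf the nearest genes, Gm16372 (0.32), Slc45a3 (0.33) and D18Ertd653e (0.33), lay at about as far a distance as for Ret although Bdnf itself varied by 0.63 around its mean against 1.97 for Ret. Patterns over 9 libraries of 3 groups rest mostly on the 3 group levels, and these values are a description. The log2 CPM used a prior count of 2, which shrinks differences of genes with few reads, such as Ntf3 and Ret in PP. For these genes the distances and the variation around the mean are less sharp than the fitted folds.

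The other genes of both pathways came from 6 lists with 88 genes. The counts called in these lists stand beside the shares over all features tested. These were 21.3% higher and 20.2% lower from PP to DP, and 33.1% and 34.2% from DP to Neuron. In Neuron against PP they were 36.7% and 38.6%. Among the other ligands, Gdnf was at 0 reads in PP with at most 2 in any other library, Ntf5 had at most 2 and Pspn at most 11. These 3 were below the filter. Nrtn, which encodes neurturin, the ligand of GFRα2, was at 0.618 ± 0.200 CPM in PP, 0.309 ± 0.0854 in DP and 0.160 ± 0.0373 in Neuron, so that it was highest where Gfra2 was lowest. It was 2.04-fold lower in DP than in PP (adjusted p = 0.0262) and Neuron lay 3.84-fold below PP (adjusted p = 0.000440), while the step from DP to Neuron was not called (adjusted p = 0.0609). Artn was called in no comparison.

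Of the 12 other receptors and coreceptors that could be tested (Gfra3 was below the filter), 6 rose and 3 fell from PP to DP, 8 rose and 1 fell from DP to Neuron, and 11 were higher and 1 lower in Neuron than in PP, with median log2 fold changes of 0.92, 1.37 and 2.41. Islr2, which encodes linx, a membrane protein that binds Trk receptors and Ret, rose from 13.3 ± 6.79 CPM in PP to 54.9 ± 8.31 in DP (4.16-fold, adjusted p = 0.000177) and 2409 ± 143 in Neuron (43.8-fold over DP, adjusted p = 2.96e-08). Lingo1, a partner of p75, was at 0.705 ± 0.185, 2.25 ± 0.737 and 85.8 ± 11.3 CPM and rose 37.6-fold from DP to Neuron (adjusted p = 1.09e-09). Sdc3, which encodes the GDNF-binding proteoglycan syndecan-3, rose from 77.8 ± 21.0 to 322 ± 59.9 CPM from PP to DP (4.14-fold, adjusted p = 5.25e-06). Ncam1 was 1.26-fold lower in DP than in PP (199 ± 23.9 against 251 ± 6.63 CPM, adjusted p = 0.0136) and rose to 691 ± 62.3 CPM in Neuron, 3.47-fold over DP (adjusted p = 1.21e-08) and 2.75-fold over PP (adjusted p = 4.52e-08). Sorcs1, a sortilin-family sorting receptor, fell at both steps, from 43.1 ± 5.07 to 14.8 ± 0.443 and 3.55 ± 0.283 CPM (2.90-fold and 4.18-fold lower, adjusted p = 6.29e-07 and 1.16e-08). Outside the naming rule, and chosen after its values were seen, Gfra4 was at 0.619 ± 0.403, 2.21 ± 0.279 and 17.5 ± 2.23 CPM and rose at both steps (adjusted p = 0.00141 and 1.59e-06).

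**Figure D4:**
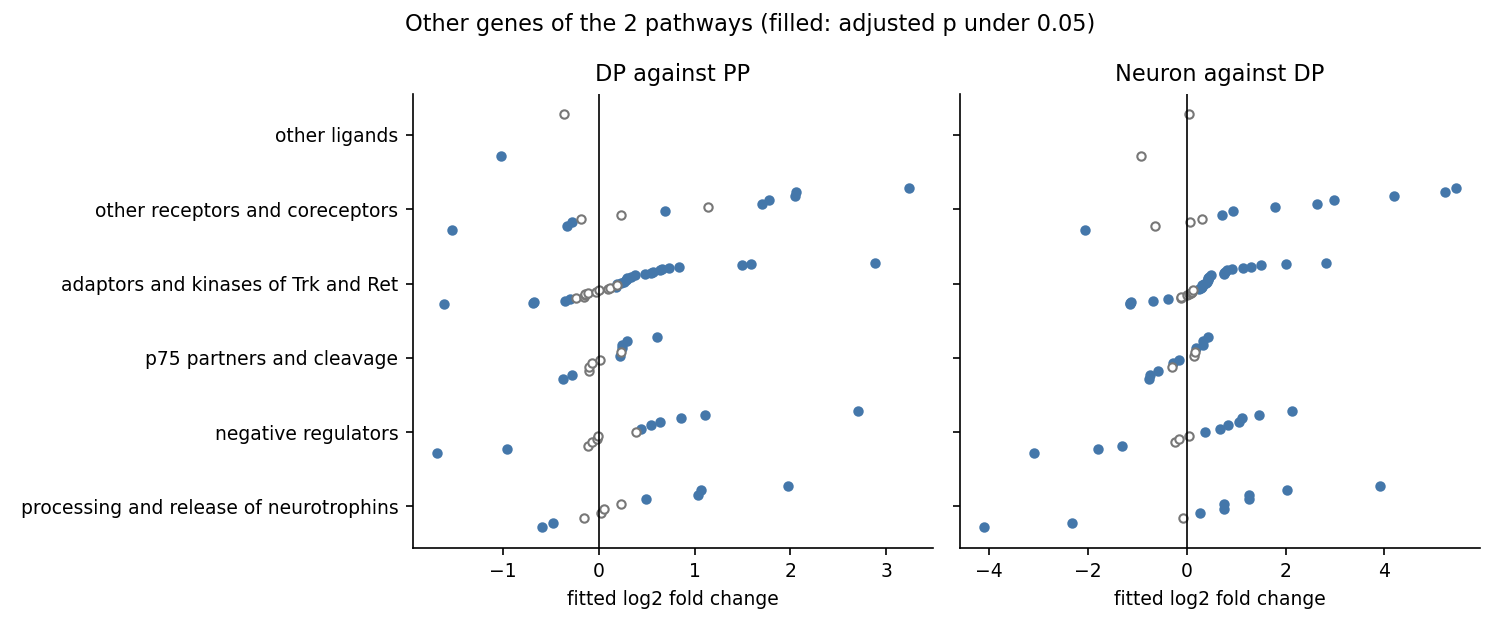
Fitted log2 fold change (x axis) of the tested genes of 6 pathway lists in DP against PP (left) and Neuron against DP (right); each point is a gene, filled where its adjusted p is under 0.05, and within a list the height only orders genes by fold change. Among called genes with at least 5 CPM in the higher group, Dok4 of the adaptors lies furthest right in the left panel (2.88). In the right panel it is Islr2 of the other receptors and coreceptors (5.45). Every p75 partner lies within 1 log2 unit of 0.

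Of the 34 adaptors and kinases of Trk and Ret, 19 rose and 5 fell from PP to DP, 22 rose and 5 fell from DP to Neuron, and 23 were higher and 7 lower in Neuron than in PP, with medians of 0.21, 0.37 and 0.71. Dok4, an adaptor of Ret, rose from 9.06 ± 1.48 to 66.5 ± 14.1 CPM from PP to DP (7.37-fold, adjusted p = 2.95e-07). Kidins220, a scaffold that binds Trk receptors and p75, rose from 320 ± 36.3 CPM in DP to 1299 ± 73.8 in Neuron (4.06-fold, adjusted p = 7.77e-09), and Dok6, another Ret adaptor, from 1.99 ± 0.485 to 13.9 ± 2.81 (7.02-fold, adjusted p = 2.20e-07). The Shc adaptors split. Shc2 rose from 14.6 ± 2.82 in PP to 44.2 ± 2.15 CPM in DP (3.01-fold, adjusted p = 1.35e-06), whereas Shc3 fell from 38.3 ± 4.93 to 12.5 ± 3.44 (3.07-fold lower, adjusted p = 1.66e-05) and then to 5.60 ± 0.194 in Neuron. Shc4 was lower in DP than in PP (9.51 ± 2.67 against 15.3 ± 2.17 CPM, adjusted p = 0.00744) and Shc1 lower in Neuron than in DP (13.3 ± 0.838 against 29.4 ± 3.72, adjusted p = 3.41e-06). Map2k1, a kinase of the ERK cascade, was 2.70-fold below its PP level in Neuron (13.8 ± 0.480 against 37.2 ± 2.66 CPM, adjusted p = 6.37e-08).

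The 12 p75 partners and cleavage genes had medians near 0: 5 rose and 2 fell from PP to DP, 4 rose and 5 fell from DP to Neuron, and 5 were higher and 3 lower in Neuron than in PP, with median log2 fold changes of 0.12, -0.01 and 0.08. Ncstn, a subunit of the γ-secretase that cuts p75, rose 1.53-fold from PP to DP (112 ± 7.22 to 171 ± 13.2 CPM, adjusted p = 8.57e-05). Adam17, a protease that sheds the outer part of p75, fell from 67.6 ± 4.94 to 55.8 ± 1.21 and 32.8 ± 1.59 CPM (adjusted p = 0.00933 and 1.97e-06). Rhoa, the small GTPase that p75 acts on, was 1.94-fold below its PP level in Neuron (76.4 ± 4.77 against 148 ± 10.1 CPM, adjusted p = 2.34e-07). Ngfrap1, a p75-binding protein gene, rose 1.23-fold and 1.26-fold at the 2 steps, to 203 ± 18.4 CPM (adjusted p = 0.0339 and 0.00989). Ripk2 was higher and Nradd lower in Neuron than in DP (7.72 ± 1.60 against 5.73 ± 0.713 CPM, adjusted p = 0.0311, and 5.13 ± 0.953 against 8.58 ± 0.439, adjusted p = 0.000789).

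Of the 13 negative regulators of receptor tyrosine kinases, 6 rose and 2 fell from PP to DP, 7 rose and 3 fell from DP to Neuron, and 7 were higher and 4 lower in Neuron than in PP, with medians of 0.38, 0.38 and 0.87. Dusp4, an ERK phosphatase, rose from 19.8 ± 4.13 to 129 ± 14.1 and 357.1 ± 29.9 CPM (6.54-fold and 2.77-fold, adjusted p = 2.49e-07 and 1.05e-06), and Dusp6, another, rose 4.40-fold from DP, to 39.5 ± 7.81 CPM in Neuron (adjusted p = 0.000104). The Sprouty genes, feedback inhibitors of the ERK pathway, split in DP against PP: Spry1 rose 2.15-fold (adjusted p = 0.00354), while Spry2 was 1.95-fold lower (adjusted p = 0.000211) and Spry4 3.24-fold lower (adjusted p = 6.97e-05). Lrig1, a repressor of receptor tyrosine kinases that binds Ret and TrkB, was at 78.4 ± 9.36 CPM in PP, 77.6 ± 4.09 in DP and 9.06 ± 1.17 in Neuron, an 8.55-fold drop from DP to Neuron (adjusted p = 7.95e-10). Nedd4, a ubiquitin ligase, fell from 1777 ± 132 CPM in DP to 715 ± 41.4 in Neuron (adjusted p = 4.83e-08).

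Of the 10 genes for the processing and release of neurotrophins, 4 rose and 2 fell from PP to DP, and 7 rose and 2 fell both from DP to Neuron and in Neuron against PP, with medians of 0.14, 0.76 and 0.63. Cadps, a priming factor for dense-core vesicles, rose from 23.1 ± 4.34 to 91.1 ± 11.8 CPM from PP to DP (3.94-fold, adjusted p = 7.06e-07) and stood at 219 ± 5.20 in Neuron. Its relative Cadps2 went the other way, from 14.9 ± 1.86 to 10.7 ± 0.718 and 2.159 ± 0.375 CPM (adjusted p = 0.0121 and 5.42e-08). Pcsk2, a neuroendocrine convertase gene, rose from 1.22 ± 0.146 CPM in DP to 18.4 ± 0.0478 in Neuron (15.1-fold, adjusted p = 3.92e-09). Pcsk6 peaked in DP, at 6.49 ± 1.48, 13.7 ± 2.83 and 0.792 ± 0.112 CPM (adjusted p = 0.000863 and 1.97e-08). Plat, the gene for tissue plasminogen activator, dipped there, at 12.9 ± 0.676, 8.58 ± 1.08 and 20.6 ± 2.099 CPM (adjusted p = 0.00159 and 1.21e-06).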

How the data were processed

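Whole-number gene counts per run were deposited by the authors in tables of Ensembl genes, as the count tables' headers show (per the file headers). The build mm9 and, without roles, the following tools are listed in the submitters' processing notes: featureCounts 1.4.4, TopHat2 2.0.10, DESeq2 1.4.5, DESeq and Bowtie2 2.2.1, besides Cufflinks 2.1.1, BWA 0.5.9-r16, bedtools 2.16.2 and bcl2fastq 1.8.2. The deposited comparison tables hold a scaled signal per library, and 319212 of 319212 values checked equalled the counts of both runs divided by a size factor of the library (tolerance 0.06 plus rounding of large values). They also hold the authors' log2 fold change, its standard error and test statistic (a score per gene) and the authors' p-value with its adjusted form, per the file headers.

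Column names give a group and a library number that no sample label holds, so columns were tied to groups only. Chi-square over its degrees of freedom was 8.475 to 31.27 between libraries of a group and 25.64 to 37.17 between both runs of 1 library. The library numbers form 3 sets of consecutive numbers with 1 library of each group (L222 to L224, L355 to L357, L393 to L395). Deviations from the group means correlated at 0.130 to 0.345 in the 9 pairs of libraries of a set, over 18627 features. In the other 18 pairs across groups they correlated at -0.319 to 0.0106. Libraries of a set thus deviated together, a pairing that comes from these numbers and not from a label. Neither the main fit, with its shares over all features, nor the permutation tests of ratios took this pairing into account. Counts of the 2 runs of a library were added, and tested with edgeR 4.0.16 (R 4.3.3): TMM scaling (factors from 0.867 to 1.12), filterByExpr, a quasi-likelihood fit of the 9 libraries together with no term but the group, and Benjamini-Hochberg adjustment over 18627 features at 0.05. The script was tested on simulated data with the same spread for every feature and independent libraries. Changes were simulated only in features with a higher mean count than Bdnf, Ntf3 or Ret had. That test therefore does not cover the calls of such scarce genes. The series design states biological replicates. CPM uses the TMM-scaled total, and RPKM the gene length in the count table. Exact intervals of count ratios are 95% and cover counting error only.

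Alternatives were RLE scaling, no filter, 1 kind of run, only the groups compared, each library left out, L222 to L224 left out together, and DESeq2 1.42.0, besides the sets as a block, added after seeing the data. The 8 genes, the 6 pathway lists and 12 marker lists were chosen with earlier results of these data known. The rule named, per pathway list and comparison, at most the 2 highest and 2 lowest called genes whose higher group reached 5 CPM, and the 3 genes nearest in pattern with a mean of at least 1 CPM (log2 CPM with a prior count of 2).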

Additional observations from a re-analysis of the deposited data

How the results depend on the processing

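Each comparison was recomputed under 16 alternatives, which gave 383 values for the 24 fold changes of the 8 genes. Of these, 359 kept their direction and their side of the threshold, 22 lost a call, 1 gained one and 1 reversed. The counts of features called, of members higher in each comparison and of members lower in Neuron against DP and against PP stayed within 1.5 times. The count of members lower in DP than in PP went from 2 to 1 with the single-read runs only, with only the groups compared, with DESeq2, and over the libraries left out in turn it ranged from 1 to 2 (1 without PP L393, DP L223, DP L356, Neuron L357 or Neuron L395). In each of these Ngfr was the gene lost, with an adjusted p between 0.0502 and 0.200, and the cause was not tested. Bdnf in DP against PP reversed without PP L393, to a log2 fold change of -0.2585 (adjusted p = 0.636), ranged from -0.2585 to 0.4813 over the libraries left out, and was called in no setting. RLE scaling and DESeq2 moved the median log2 fold change of all features by at most 0.03. Ret in DP against PP has no value with only the groups compared, where it did not pass the filter on low counts. The replicate numbers of the titles were not used as a block, since the count columns do not carry them. A replicate block by sets of consecutive library numbers, chosen after seeing the data, changed no call of the 24 fold changes. With it Ngfr in DP against PP had a log2 fold change of -1.14 (adjusted p = 0.0306). In that comparison 9530 features were called with the block, against 7714 in the main fit. The shares over all features given above come from the main fit. At this depth a gene with 3 reads in a group, as Ntf3 and Ret in PP, gives no more than a wide range for its fold.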
